A study of Mus musculus with 8 samples.

Results

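The 7 genes Lipa, Npc2, Npc1, Stard3, Soat1, Nceh1 and Cyp27a1 act on cholesterol inside the cell, between its release from lipoproteins in the lysosome and its storage as ester. They were chosen by name for these roles, with earlier results of these data known. All 7 were found among the 24421 gene symbols counted. Total RNA of primary macrophages from mice was sequenced as 8 libraries. Their genotypes are labelled WT (wild type, 3 libraries), LysM-DKO (3 libraries) and ABCG1KO (2 libraries), and a normal diet is given as the treatment of every group. The design text writes Epsin-DKO for the double knockout, which is taken here as the group labelled LysM-DKO, and LysM is the gene (Lyz2) from which Cre is usually driven in myeloid cells. Age, sex, source tissue and the deleted alleles are not given in the sources used here, and nothing states that the libraries of a group came from separate animals. The p-values therefore measure the spread between these libraries. That spread may be technical, although in LysM-DKO it also spans libraries of male and female pattern, as given below.

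Macrophages take up lipoproteins and deliver them to lysosomes, where the acid lipase encoded by Lipa splits cholesteryl ester. The free cholesterol is picked up by the small soluble protein NPC2 and handed to NPC1 in the lysosomal membrane, and STARD3 on late endosomes moves sterol at contacts with the endoplasmic reticulum. There SOAT1 (also called ACAT1) esterifies surplus cholesterol for storage in lipid droplets, and the hydrolase encoded by Nceh1 frees it again. CYP27A1 is a mitochondrial enzyme that turns cholesterol into 27-hydroxycholesterol. Free cholesterol that is not stored can leave the cell through exporters such as ABCG1, the transporter deleted in one of the groups.

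Each library held 29567615 to 41888516 counts assigned to genes. The libraries labelled ABCG1KO stood apart from the others in how reads were assigned: 6.74% and 6.93% of counted reads had aligned to several loci, against 2.65% to 3.01% in the other 6 libraries, and 10.2% and 13.8% fell outside annotated genes, against 4.26% to 6.07%. Xist, a marker of female cells, was at 79.1 to 265 CPM (read counts scaled to a common library size) in the 3 WT libraries and in LysM-DKO 2 and 3. The Y-linked gene Ddx3y was at 81.6 to 94.8 CPM in LysM-DKO 1 and both ABCG1KO libraries instead. In ABCG1KO against WT, male-pattern libraries were thus set against female-pattern ones, and genotype cannot be told apart from sex. Abcg1 was at 60.4 and 73.4 CPM in ABCG1KO and at 345 to 405 CPM in WT. Epn1 was at 155 to 183 CPM in the libraries labelled LysM-DKO, against 191 to 229.7 CPM in WT. It was as low in ABCG1KO 1 and 2 (182 and 155 CPM), so its level does not set the LysM-DKO label apart. Epn2 lay between 5.67 and 13.2 CPM in LysM-DKO, and between 4.97 and 8.86 CPM in WT. Most epsin transcript was thus still counted in LysM-DKO, and every direction below rests on the label. All 8 macrophage markers examined, among them Csf1r, Cd68 and Adgre1, were detected in every library. Their summed level was 18040 to 21160 CPM in WT, 10990 to 13060 CPM in LysM-DKO, where Lyz2 was lower, and 18390 to 22240 CPM in ABCG1KO. Lyz2 made up most of these sums, and other markers differed in ABCG1KO without overlap with WT. Adgre1 (1399 ± 73.2 against 606 ± 140 CPM, SD, n = 2 and 3), Csf1r (2853 ± 279.9 against 1249.9 ± 375), Itgam (1366 ± 314 against 679.6 ± 214) and Cd14 (507 ± 273 against 139 ± 41.1) were higher, and Cd68 (1143 ± 319.6 against 2377 ± 270.4) was lower. The 4 fibroblast markers were present too, with a summed level of 673 to 852 CPM in WT, 617 to 1476 CPM in LysM-DKO and 137 and 1126 CPM in ABCG1KO 1 and 2. The summed B cell, T cell, neutrophil, mast cell and dendritic cell markers stayed at or below 43.65 CPM in every library. In ABCG1KO the 4 mast cell markers summed to 43.65 and 6.25 CPM in replicates 1 and 2 (at most 2.95 CPM elsewhere), the 4 dendritic cell markers to 10.8 to 12.2 CPM (at most 2.49 CPM elsewhere) and the 4 markers of resident peritoneal macrophages to 58.1 to 133 CPM (at most 40.8 CPM elsewhere). The part of these cells in the results was not tested. In bulk RNA, fewer cells of a type and less RNA per cell cannot be told apart.

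Promoter sequence is shown for the 3 genes whose transcripts fell in ABCG1KO, Npc2, Soat1 and Stard3, with motif matches in capitals. The windows searched are the 250 bases before the RefSeq start site in GRCm38.p6. They are printed 5′ to 3′ on the strand of the gene, up to the start of the gene in GENCODE where that comes earlier. The printed stretches are chr12:84773153-84773362 (minus strand) for Npc2, chr1:156474332-156474578 (minus strand) for Soat1 and chr11:98358118-98358367 (plus strand) for Stard3.
Npc2: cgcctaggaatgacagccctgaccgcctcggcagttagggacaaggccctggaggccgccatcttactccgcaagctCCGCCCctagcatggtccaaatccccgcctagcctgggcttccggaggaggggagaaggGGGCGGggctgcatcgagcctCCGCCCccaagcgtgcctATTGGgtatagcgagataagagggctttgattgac
Soat1: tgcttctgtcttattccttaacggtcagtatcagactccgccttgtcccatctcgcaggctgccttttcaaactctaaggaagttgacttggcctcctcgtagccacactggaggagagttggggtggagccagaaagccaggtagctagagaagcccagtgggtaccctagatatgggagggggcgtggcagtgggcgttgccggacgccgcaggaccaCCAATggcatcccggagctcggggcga
Stard3: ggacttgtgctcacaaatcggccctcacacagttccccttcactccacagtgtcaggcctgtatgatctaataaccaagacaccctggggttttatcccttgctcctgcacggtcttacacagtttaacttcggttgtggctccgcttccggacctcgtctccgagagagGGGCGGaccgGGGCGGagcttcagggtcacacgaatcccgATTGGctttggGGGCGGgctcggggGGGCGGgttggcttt

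The motifs were searched on both strands, and shares are given over the 32851 RefSeq promoter windows of the same length. A CCAAT box (CCAAT) was found in all 6 members with a window in the table, Lipa and Cyp27a1 included, against 33.8% of all windows. The GC box (GGGCGG) was found in 3 of the 6 members, 3 times in Npc2, 4 times in Stard3 and once in Cyp27a1, against 32.7% of all windows. Npc2 held 2 CCAAT boxes, of which the one 6 bases before the RefSeq start lies beyond the printed stretch. Nceh1 carried the E-box CACGTG 26 bases before its RefSeq start, inside the first exon of GENCODE, a motif found in 6.02% of all windows. The CLEAR motif of lysosomal genes, which is the E-box preceded by GT and followed by AC, was in 0 of the 6 windows and in 0.24% of all. The sterol regulatory element of the LDL receptor gene (0.0731% of all windows) and the DR4 repeat bound by LXR (AGGTCA, any 4 bases, AGGTCA; 0.0152%) were likewise in 0 of the 6. These matches describe letters in a short window and nothing about binding.

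In the GENCODE annotation (GRCm38) all 7 are protein-coding genes. Lipa lies at chr19:34492318-34527474, Npc2 at chr12:84754562-84773152, Stard3 at chr11:98358368-98381112, Soat1 at chr1:156424525-156474331, Nceh1 at chr3:27182965-27284608 and Cyp27a1 at chr1:74713574-74737892. Levels were compared between genes per kilobase of annotated exon sequence (CPM per kb, GENCODE M21, GRCm38), since longer transcripts collect more reads. In WT, Lipa was highest at 997 ± 149 CPM per kb (SD, n = 3), followed by Npc2 at 619 ± 42.1, and their ranges did not overlap. Nceh1 (105 ± 8.04), Soat1 (92.6 ± 10.1) and Npc1 (76.1 ± 17.5) formed a middle tier in which each overlapped its neighbour. Stard3 (41.1 ± 1.45) and Cyp27a1 (23.9 ± 3.49) were lowest and did not overlap each other or Npc1. Lipa and Npc2 were thus represented by far more transcript per length than any other member. Lipa and Npc2 also led in the other groups, at 1010.4 ± 219 and 399 ± 33.1 CPM per kb in LysM-DKO and at 577 ± 226 and 356 ± 27.3 in ABCG1KO (n = 2). Soat1 stood below Npc1 in LysM-DKO (77.3 ± 9.54 against 80.7 ± 8.71) and in ABCG1KO (49.4 ± 16.0 against 69.7 ± 20.4), with overlapping ranges in both. In ABCG1KO the ranges of Stard3 and Cyp27a1 overlapped as well.

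**Figure D1:**
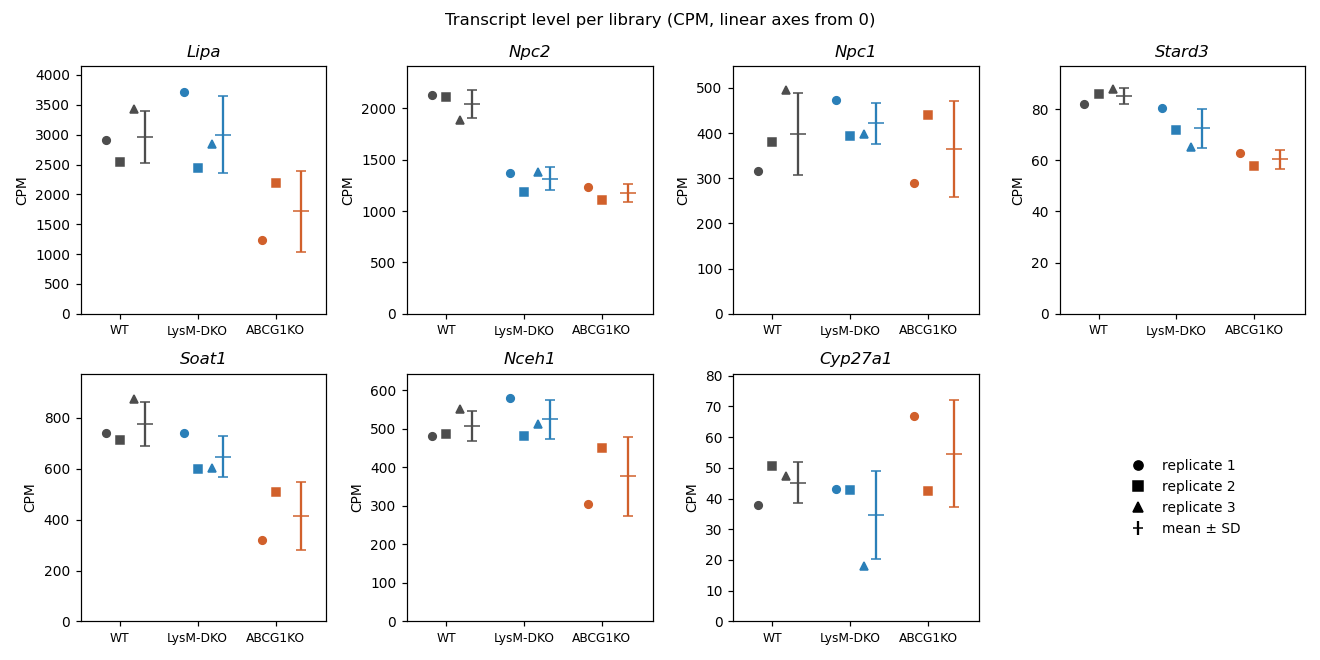
CPM of each of the 7 transcripts (vertical axes, linear and starting at 0) in every library of WT, LysM-DKO and ABCG1KO (horizontal axis). Symbols mark the replicate number, and the bar beside each group is the mean ± SD. Npc2 is lower in all 5 knockout libraries (1111 to 1383 CPM) than in the 3 WT libraries (1883 to 2136 CPM), and Soat1 is lowest in the ABCG1KO libraries (319 and 509 CPM).

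Lipa encodes lysosomal acid lipase. It was at 2913, 2544 and 3425 CPM in WT 1, 2 and 3, while LysM-DKO 1, 2 and 3 had 3711, 2439.9 and 2848 CPM, and ABCG1KO 1 and 2 had 1239.5 and 2189 CPM. LysM-DKO covered the whole range of WT, while both ABCG1KO libraries were below every other library. The log2 fold change was 0.02 (SE 0.260, 95% interval -0.58 to 0.61) in LysM-DKO against WT, with its sign turned by RLE factors (-0.0012), and -0.79 (SE 0.298, interval -1.47 to -0.11) in ABCG1KO against WT. The latter corresponds to 57.9% of WT. It missed the threshold, an adjusted p under 0.05 over all genes tested (edgeR quasi-likelihood test, Benjamini-Hochberg adjusted p 0.11). It was past it with DESeq2 and without ABCG1KO 2 (-1.26), and it was -0.44 without ABCG1KO 1.

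NPC2 binds cholesterol in the lumen of the lysosome. Npc2 was at 2136, 2108 and 1883 CPM in WT 1, 2 and 3, while LysM-DKO 1, 2 and 3 had 1375, 1189.9 and 1383 CPM, and ABCG1KO 1 and 2 had 1239 and 1111 CPM. Every knockout library was below every WT library, and both knockout groups share these WT libraries. In ABCG1KO the transcript fell by 0.80 on the log2 scale (SE 0.169, 95% interval -1.18 to -0.41), to 57.5% of WT, and passed the threshold (edgeR Benjamini-Hochberg adjusted p 0.0179). In LysM-DKO its mean was 1316 ± 109 CPM against 2042 ± 139 in WT (SD, n = 3 each), 64.4% of the WT level. That log2 fold change of -0.63 (SE 0.148, interval -0.97 to -0.30) missed the threshold (edgeR Benjamini-Hochberg adjusted p 0.270) and passed it with DESeq2 (-0.66, adjusted p 0.00194). Between the knockout groups the difference was 0.16 (interval -0.21 to 0.54).

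NPC1 is the membrane protein that takes cholesterol over from NPC2. Npc1 was at 316, 380.5 and 496 CPM in WT 1, 2 and 3, while LysM-DKO 1, 2 and 3 had 474, 394 and 397 CPM, and ABCG1KO 1 and 2 had 289 and 439.6 CPM. All groups overlapped, and the spread within WT (398 ± 91.3 CPM) was wider than any difference between group means. Log2 fold changes were 0.08 (SE 0.219, 95% interval -0.42 to 0.59) in LysM-DKO and -0.13 (SE 0.246, interval -0.69 to 0.44) in ABCG1KO against WT, where the value was 0.11 when scaled by library size only. Their signs also changed with the libraries used: the first was -0.06 without WT 1 and -0.02 without LysM-DKO 1, the second 0.06 without WT 3 and 0.14 without ABCG1KO 1. Exons of Npc1 overlap genes on the opposite strand over 5.4% of their length, and the strand setting of the counting is not given in the sources used here.

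STARD3 is a sterol carrier of late endosomes. Stard3 was at 81.9, 85.8 and 87.8 CPM in WT 1, 2 and 3, while LysM-DKO 1, 2 and 3 had 80.5, 71.7 and 65.3 CPM, and ABCG1KO 1 and 2 had 63.0 and 57.9 CPM. The order WT, LysM-DKO, ABCG1KO held without overlap between any of the groups, with the narrowest spread of the 7 genes in WT (± 3.01 CPM). It fell by 0.50 on the log2 scale in ABCG1KO (SE 0.133, 95% interval -0.80 to -0.19), to 70.9% of WT (edgeR Benjamini-Hochberg adjusted p 0.0397). In LysM-DKO the log2 fold change was -0.23 (SE 0.117, interval -0.50 to 0.04, edgeR Benjamini-Hochberg adjusted p 0.473).

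SOAT1 forms the esters that fill the droplets of foam cells. Soat1 was at 741, 714 and 872 CPM in WT 1, 2 and 3, while LysM-DKO 1, 2 and 3 had 739, 598 and 604 CPM, and ABCG1KO 1 and 2 had 319 and 509 CPM. ABCG1KO lay below all other libraries, and LysM-DKO 1 fell inside the WT range. The transcript fell by 0.91 on the log2 scale in ABCG1KO (SE 0.232, 95% interval -1.44 to -0.37), to 53.4% of WT, the largest log2 change of the 7 genes in any of the comparisons (edgeR Benjamini-Hochberg adjusted p 0.0342). The log2 fold change was -0.62 without ABCG1KO 1 and -1.29 without ABCG1KO 2. In LysM-DKO the log2 fold change was -0.26 (SE 0.202, interval -0.72 to 0.20).

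Nceh1 encodes a hydrolase that acts on cholesteryl ester outside the lysosome. It was at 481, 487 and 551 CPM in WT 1, 2 and 3, while LysM-DKO 1, 2 and 3 had 580.2, 481 and 511 CPM, and ABCG1KO 1 and 2 had 304 and 449 CPM. WT and LysM-DKO overlapped, and both ABCG1KO libraries were lower than all of them. The log2 fold change was -0.43 in ABCG1KO (SE 0.198, 95% interval -0.88 to 0.03, edgeR Benjamini-Hochberg adjusted p 0.181) and 0.05 in LysM-DKO (SE 0.175, interval -0.35 to 0.45). The latter was -0.04 without LysM-DKO 1.

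Cyp27a1 encodes the sterol 27-hydroxylase. It was at 37.8, 50.4 and 47.3 CPM in WT 1, 2 and 3, while LysM-DKO 1, 2 and 3 had 43.1, 42.8 and 17.9 CPM, and ABCG1KO 1 and 2 had 66.9 and 42.4 CPM. The groups overlapped, and LysM-DKO 3, with 718 counts, was the lowest library by a wide margin. The log2 fold changes against WT were -0.38 in LysM-DKO (SE 0.334, 95% interval -1.15 to 0.38) and 0.27 in ABCG1KO (SE 0.370, interval -0.58 to 1.12). Single libraries set both values: the first was -0.07 without LysM-DKO 3, and the second -0.10 without ABCG1KO 1.

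**Figure D2:**
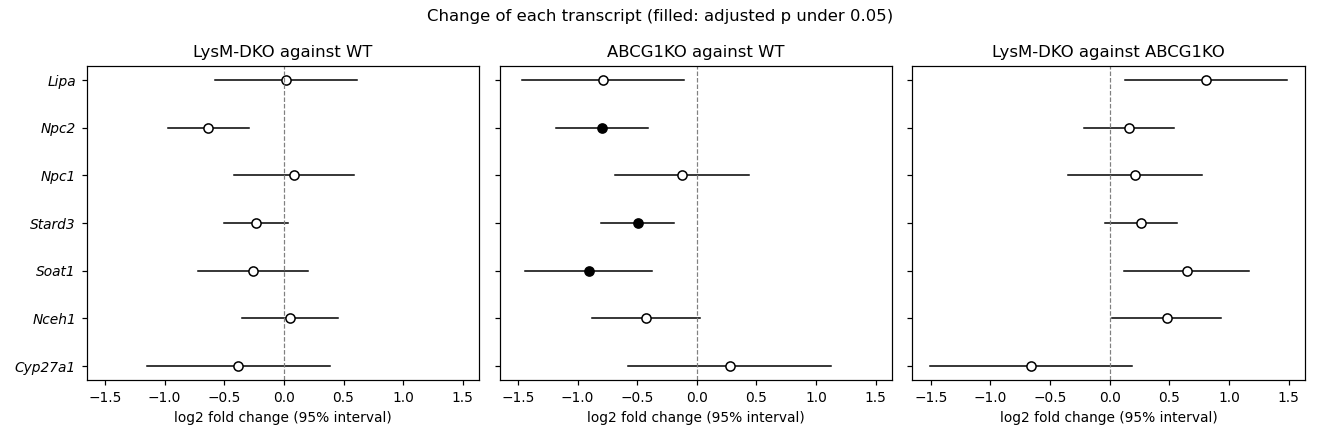
Log2 fold change (horizontal axis) of each of the 7 transcripts (vertical axis) in the 3 comparisons, with 95% intervals as lines. Filled points are past an adjusted p of 0.05: Npc2, Stard3 and Soat1 in ABCG1KO against WT, and none in the other comparisons.

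Read as a set, 3 of the 7 members fell and 0 rose past the threshold in ABCG1KO against WT. DESeq2 called 4 of the 7, Lipa in addition, and 21.3% of the genes to which it gave an adjusted p. Over all 13821 genes tested in that comparison, 16.0% were called, 8.83% lower and 7.21% higher. In 5 of the 7 (Lipa, Npc2, Stard3, Soat1 and Nceh1) both ABCG1KO libraries were below all WT libraries, where 24.2% of all genes were separated in that direction, and the median log2 fold change was -0.50 against 0.01 for all genes. Scaling by library size only raised the median of all genes to 0.25. On that scale Npc2 changed by -0.56 and remained past the threshold, while Soat1 (-0.67) and Stard3 (-0.26) were not past it. The calls also needed nearly all libraries: Npc2 was not called without WT 2 (-0.78), ABCG1KO 1 (-0.89) or ABCG1KO 2 (-0.73). Soat1 was not called without WT 1 (-0.94), WT 2 (-0.96), WT 3 (-0.81) or ABCG1KO 1. Stard3 was not called without WT 1 (-0.52), WT 2 (-0.49), WT 3 (-0.47), ABCG1KO 1 (-0.56) or ABCG1KO 2 (-0.44). The higher share of reads at several loci, the male pattern, the higher Adgre1, Csf1r, Itgam and Cd14, the lower Cd68 and the marker levels of other cells in ABCG1KO move with these falls, and their part was not tested. The 7 genes share little sequence with other transcripts, at most 4.39% of 50-base words (Npc1) and 0% to 0.854% in the other 6.

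In LysM-DKO against WT, edgeR called 0 of the 7 members and DESeq2 called 1, Npc2. Over all genes 0.0362% were called by edgeR and 2.05% of those with an adjusted p by DESeq2. At an unadjusted edgeR p under 0.05 there was 1 of 7 members, again Npc2, and 11.7% of all genes. Npc2 and Stard3 were lower in all LysM-DKO libraries than in all WT libraries, a direction without overlap that 9.98% of all genes showed. The median log2 fold change of the 7 was -0.23, against 0.02 for all genes. LysM-DKO 1 was the highest LysM-DKO library for Lipa, Npc1, Soat1, Nceh1, Stard3 and Cyp27a1, and it was the library with the male pattern. Without it the values were -0.68 for Npc2 and -0.33 for Stard3, and none of the 7 was called.

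In LysM-DKO against ABCG1KO, edgeR called 0 of the 7 members and DESeq2 called 1 (Lipa), while edgeR called 13.4% of all genes and DESeq2 20.6% of those with an adjusted p. An unadjusted edgeR p under 0.05 was reached by 3 of the 7 members (Lipa, Soat1 and Nceh1) and by 30.9% of all genes. Lipa was higher in LysM-DKO by a log2 difference of 0.81 (SE 0.298, 95% interval 0.12 to 1.49), Soat1 by 0.65 (SE 0.230, interval 0.12 to 1.17) and Nceh1 by 0.48 (SE 0.198, interval 0.02 to 0.93). These 3 and Stard3 (0.26, interval -0.04 to 0.57) were higher in all LysM-DKO libraries than in both ABCG1KO libraries, as were 25.6% of all genes. Without ABCG1KO 2, Lipa (1.28), Soat1 (1.03) and Nceh1 (0.79) were past the threshold, and without ABCG1KO 1 their log2 differences were 0.44, 0.34 and 0.21. Cyp27a1 differed by -0.66 (interval -1.50 to 0.19) and Npc1 by 0.21 (interval -0.35 to 0.78), and the sign of Npc1 turned without ABCG1KO 1 (-0.07). Both ABCG1KO libraries had the male pattern and more reads at several loci, while LysM-DKO 2 and 3 had the female pattern. The part of these differences was not tested.

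The ratio of 2 transcripts within a library does not depend on how libraries are scaled, and it can set the transcript of a hydrolase beside Soat1. No test was made on these ratios, and no share over other gene pairs was computed. The genes were chosen with results known, here as in the comparisons above. The ratio of Nceh1 to Soat1 counts was 0.649, 0.683 and 0.631 in WT 1, 2 and 3, 0.785, 0.804 and 0.846 in LysM-DKO 1, 2 and 3, and 0.953 and 0.883 in ABCG1KO 1 and 2. The 3 groups did not overlap, with means of 0.654 ± 0.0263 (SD, n = 3), 0.812 ± 0.0313 (n = 3) and 0.918 ± 0.0494 (n = 2). Nceh1 transcript was thus higher relative to Soat1 in all 5 knockout libraries. In LysM-DKO the Soat1 mean was lower and the Nceh1 mean similar, and in ABCG1KO both were lower. The spread of this ratio within a group was narrow even where Soat1 itself ranged from 319 to 509 CPM.

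The other ratios examined did not separate all 3 groups. Lipa to Soat1 was 3.93, 3.56 and 3.93 in WT 1, 2 and 3, 5.02, 4.08 and 4.71 in LysM-DKO 1, 2 and 3, and 3.88 and 4.30 in ABCG1KO 1 and 2. LysM-DKO lay above WT in every library, and ABCG1KO overlapped both groups. For the carrier pair, the ratio of Npc2 to Npc1 was 6.75, 5.54 and 3.79 in WT 1, 2 and 3, 2.90, 3.02 and 3.48 in LysM-DKO 1, 2 and 3, and 4.29 and 2.53 in ABCG1KO 1 and 2. LysM-DKO was below WT throughout, with a mean of 3.13 ± 0.306 against 5.36 ± 1.49, and ABCG1KO again overlapped both. Lipa to Nceh1 was 4.08 and 4.87 in ABCG1KO 1 and 2, below every other library (5.07 to 6.40), while WT and LysM-DKO overlapped. Npc2 to Lipa was 0.371, 0.488 and 0.486 in LysM-DKO 1, 2 and 3, below WT (0.550 to 0.829). In ABCG1KO 1 and 2 it was 0.999 and 0.508, above and below the WT range.

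**Figure D3:**
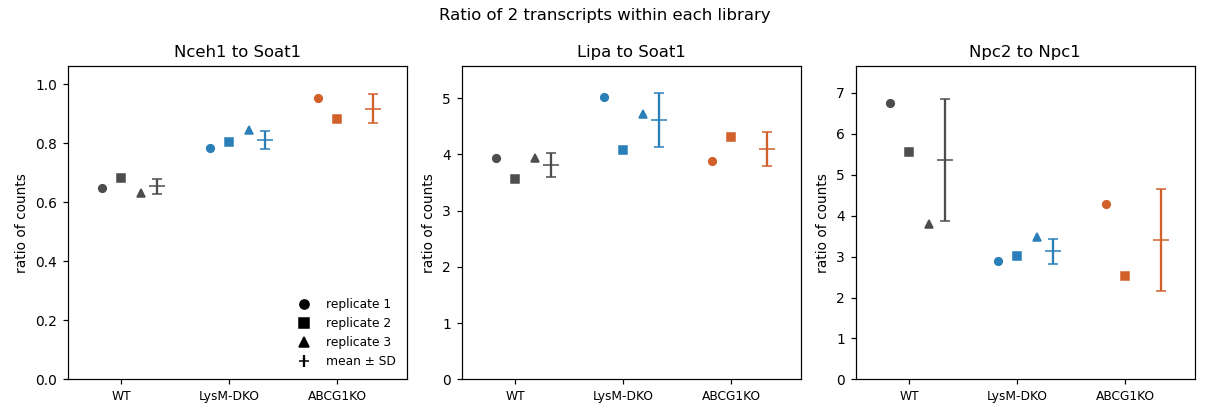
Ratio of counts of 2 transcripts within each library (vertical axes, linear from 0) in WT, LysM-DKO and ABCG1KO (horizontal axis), with the mean ± SD beside each group. Nceh1 to Soat1 separates the 3 groups (means 0.654, 0.812 and 0.918), whereas Lipa to Soat1 and Npc2 to Npc1 overlap between ABCG1KO and the other groups.

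The members also differed in how they varied from library to library. Profiles were compared as log2 CPM over the 8 libraries, each centred on its own mean, by the root mean square (RMS) difference. Of the 21 pairs of members, Lipa and Soat1 were the closest (RMS difference 0.151), followed by Npc1 and Nceh1 (0.173) and Lipa and Nceh1 (0.202). Lipa and Cyp27a1 were the farthest apart (0.823). Lipa, Soat1, Nceh1 and Npc1 were all lower in ABCG1KO 1 than in ABCG1KO 2, and highest within WT in WT 3 and within LysM-DKO in LysM-DKO 1. Npc2, Stard3 and Cyp27a1 were higher in ABCG1KO 1 than in ABCG1KO 2. ABCG1KO 1 is the library with the low fibroblast markers (137 CPM against 1126) and the higher mast cell markers (43.65 CPM against 6.25). It also had fewer counts in genes (29567615 against 38747428) and more reads outside annotated genes (13.8% against 10.2%). The part of these differences in this contrast was not tested.

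Among 8504 other genes with a mean of at least 10 CPM, the 2 nearest profiles are named for 5 of the 7 members. For Lipa these were Atp6v1a (RMS difference 0.100) and Tpcn1 (0.120), and for Soat1 they were Wdr91 (0.0792) and Tpcn1 (0.109). Npc1 was nearest to Lonrf3 (0.0823) and Zmym4 (0.0842), and Nceh1 to Mta3 (0.0788) and Ahcyl2 (0.0822). The nearest to Cyp27a1 were farther away, with Tcp11l2 at 0.155 and Irf8 at 0.167. Of the 7 members, Cyp27a1 also varied most about its own mean (RMS 0.509), followed by Lipa (0.457). Distances of this kind, those between members included, grow with that variation. These distances describe 8 libraries only, and all profiles share the same 8 libraries and their scaling.

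Beyond the 7 members, 61 further genes of cholesterol handling inside the cell were listed by role, of which 55 passed the filter on low counts. In ABCG1KO against WT, 3 of the 55 rose and 8 fell past the threshold with edgeR, 5 and 15 with DESeq2, and the median log2 fold change was -0.33. Over all genes the median was 0.01, edgeR called 7.21% higher and 8.83% lower, and DESeq2 called 21.3% in either direction. The counts in the smaller lists that follow are to be read against these shares, and with so few genes they do not set a list apart. Genes of lipid droplets and ester turnover gave 3 falls and 0 rises among 9 tested. Plin3, a droplet coat protein, was at 265, 248 and 259.6 CPM in WT 1, 2 and 3 and at 78.1 and 95.8 CPM in ABCG1KO 1 and 2. Plin2, the main droplet coat of macrophages, was at 1984, 1966 and 1848 CPM in WT and at 715 and 1035 CPM in ABCG1KO. Both were lower in ABCG1KO without overlap, alongside Soat1. Their log2 fold changes were -1.57 (SE 0.181, edgeR Benjamini-Hochberg adjusted p 0.00119) and -1.14 (SE 0.238, adjusted p 0.0170). Pnpla2, which encodes adipose triglyceride lipase, changed by -1.25 (SE 0.251, edgeR Benjamini-Hochberg adjusted p 0.0148). Plin3 was called in each of 13 alternative fits, whereas Plin2 was not called without WT 2 (-1.13) or ABCG1KO 1 (-0.91), nor Pnpla2 without ABCG1KO 1 (-0.98).

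Sterol transfer proteins and their tethers gave 1 rise and 2 falls among 19. Scp2, a sterol carrier, fell from 163 ± 14.0 CPM (SD, n = 3) to 68.1 ± 6.91 (n = 2), a log2 fold change of -1.26 (SE 0.148, edgeR Benjamini-Hochberg adjusted p 0.00131), in each of 13 alternative fits too. Its level is uncertain, as 29.7% of its 50-base words occur in other transcripts. Osbpl8, a lipid exchanger at contacts of the endoplasmic reticulum, fell from 619 ± 86.2 to 321 ± 57.7 CPM (log2 fold change -0.95, SE 0.245). Gramd1a, which moves cholesterol from the plasma membrane, rose from 49.8 ± 2.33 CPM to 119.7 and 70.3 CPM in ABCG1KO 1 and 2 (log2 fold change 0.93, SE 0.246). Both passed the threshold (edgeR Benjamini-Hochberg adjusted p 0.0354 and 0.0375), and exons of Gramd1a overlap a gene on the opposite strand over 6.89% of their length. Osbpl8 was called in 0 of the 5 fits that left out a library (-1.15 to -0.78), and Gramd1a in 1 of 5 (without ABCG1KO 2), with a value of 0.49 without ABCG1KO 1.

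Around the lysosome, 1 of 16 genes rose and 2 fell. Laptm4a, a lysosomal membrane protein, rose from 396 ± 46.1 CPM to 632 and 608 CPM (log2 fold change 0.65, SE 0.151). Smpd1, acid sphingomyelinase, fell from 49.7 ± 6.86 CPM to 26.4 and 31.5 CPM (log2 fold change -0.78, SE 0.192), and Lamtor1, an anchor of the Ragulator complex, fell from 189 ± 30.9 CPM to 125 and 97.5 CPM (log2 fold change -0.77, SE 0.198). The edgeR Benjamini-Hochberg adjusted p was 0.0245 for Laptm4a, 0.0295 for Smpd1 and 0.0354 for Lamtor1. Scaled by library size only, Smpd1 (-0.54), Lamtor1 (-0.53) and the transfer gene Osbpl8 (-0.71) were not called. Lamtor1 shares 25.6% of its 50-base words with other transcripts and is uncertain. With a library left out, Laptm4a was called without WT 3 alone (range 0.60 to 0.75), Lamtor1 without WT 2 alone (-0.97 to -0.60), and Smpd1 in 0 of 5 fits (-0.92 to -0.66). Among 11 genes tested from the oxysterol list, 1 rose and 1 fell, both scarcely expressed. A place on this list does not show that a gene acts on oxysterols. Ephx2 was at 28 to 59 counts in WT and at 1 and 6 counts in ABCG1KO, and Hsd11b1 at 2 to 5 counts in WT and 98 and 30 in ABCG1KO 1 and 2. Of the 5 fits that left out a library, Ephx2 was called in 2 (not without WT 1, WT 2 or ABCG1KO 1) and Hsd11b1 in 1 (without ABCG1KO 2). Cyp27a1 was the most abundant sterol hydroxylase measured here. Ch25h and Cyp7b1 reached at most 5.51 CPM in any library, and Cyp7a1 had 0 counts in all 8, which allows up to 3 counts per library.

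**Figure D4:**
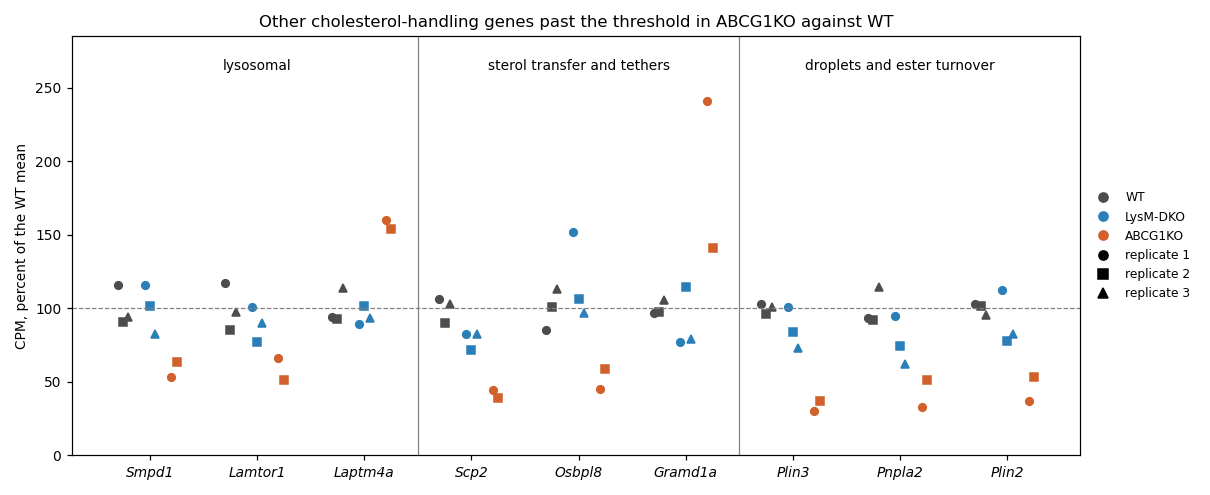
CPM of the 9 well-expressed genes of the wider set that were past the threshold in ABCG1KO against WT, as percent of the WT mean (vertical axis), in every library, grouped by role along the horizontal axis. The ABCG1KO libraries are below WT for 7 genes and above it for Laptm4a and Gramd1a.

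In LysM-DKO against WT, edgeR called 0 of these 55 genes and DESeq2 called 2 (Ch25h and Osbpl1a, both higher). An unadjusted edgeR p under 0.05 was reached by 10, and the median log2 fold change was -0.14. Over all genes edgeR called 0.0362% and DESeq2 2.05% of those with an adjusted p. The unadjusted share was 11.7% and the median 0.02. The 2 most abundant lysosomal genes were Psap, which encodes the saposins, at 24955 ± 5210.4 CPM against 36379 ± 3848 in WT (log2 fold change -0.54, SE 0.230), and Lamp1 at 2429.6 ± 97.2 against 3093 ± 290.4 (-0.35, SE 0.148). Both were lower in all 3 LysM-DKO libraries, as Npc2 was, without passing the threshold (edgeR Benjamini-Hochberg adjusted p 0.424 and 0.425). Of the 16 lysosomal genes 6 were lower without overlap, as were 9.98% of all genes. Scarb2 (0.36, SE 0.143) was the 1 that was higher without overlap, as were 1522 of all 13821 genes. Plin2 was at 1756 ± 363 CPM in LysM-DKO (-0.14, SE 0.205) and Plin3 at 221 ± 36.0 (-0.22, SE 0.153). Among the transfer proteins, Osbpl8 was at 732 ± 183 CPM (0.24, SE 0.213) and Vapb, a tether, at 175 ± 18.6 (-0.13, SE 0.137), and among the oxysterol genes Hsd3b7 was at 81.2 ± 19.9 (-0.38, SE 0.257) and Ebp at 44.4 ± 3.47 (-0.28, SE 0.136). Hsd3b7 is uncertain, as its exons are overlapped by other genes over 100% of their length and 83.1% of its 50-base words are shared, and 7.94% of the Lamp1 exons overlap a gene on the opposite strand. Ch25h, singled out after its values were seen, encodes cholesterol 25-hydroxylase and had 182, 226 and 92 counts in LysM-DKO 1, 2 and 3 against 47, 40 and 40 in WT. Its log2 fold change of 1.80 (SE 0.445) was not past the threshold (edgeR Benjamini-Hochberg adjusted p 0.289).

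Set directly against ABCG1KO, LysM-DKO had 7 of the 55 genes higher and 3 lower past the threshold with edgeR, and 12 and 4 with DESeq2. Over all genes edgeR called 7.76% higher and 5.64% lower, and DESeq2 called 20.6% in either direction. Sex pattern and the share of reads at several loci differed here too, and their part was not tested. Plin3 was higher by 1.35 on the log2 scale (SE 0.179), Osbpl1a by 1.27 (SE 0.183) and Scp2 by 0.92 (SE 0.146), and each was called in all 13 alternative fits (edgeR Benjamini-Hochberg adjusted p 0.00288, 0.00441 and 0.00703). Osbpl1a, an oxysterol-binding protein of late endosomes, had 40.3, 41.2 and 42.0 CPM in LysM-DKO 1, 2 and 3, with 28.9, 24.4 and 19.9 CPM for WT 1, 2 and 3 and 16.0 and 18.3 CPM for ABCG1KO 1 and 2. Its exons overlap a gene on the opposite strand over 14.5% of their length. Osbpl8 (1.19, SE 0.248), Plin2 (1.00, SE 0.237), Smpd1 (0.78, SE 0.192) and Stard4 (0.65, SE 0.151) were also higher in LysM-DKO. Gramd1a (-1.08, SE 0.246) and Laptm4a (-0.73, SE 0.151) were lower, as was Hsd11b1 with at most 8 counts in any LysM-DKO library. Without ABCG1KO 1, Osbpl8 (1.01), Plin2 (0.75), Smpd1 (0.65), Stard4 (0.66), Gramd1a (-0.66), Laptm4a (-0.71) and Hsd11b1 were not called. Leaving out other libraries also ended calls: LysM-DKO 1 for Plin2 (0.80), Smpd1 (0.64), Stard4 (0.58), Gramd1a (-1.0), Laptm4a (-0.71) and Hsd11b1, LysM-DKO 2 for Smpd1 (0.74), Stard4 (0.58) and Hsd11b1, LysM-DKO 3 for Gramd1a (-1.0), and ABCG1KO 2 for Smpd1 (0.92) and Stard4 (0.63).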

How the data were processed

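The members and gene lists were chosen with earlier results of these data known. Raw counts per gene symbol, 1 file per library, were deposited by the authors. The submitters' processing notes name HTSeq 0.11.2, STAR 2.7.9a, TopHat, DESeq2 1.30.1, limma and the build mm10, without roles. The annotation and strand setting are not given in the sources used here. Lines that name no gene (7.85% to 21.4% of counted reads) were left out.

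Counts were analysed with edgeR 4.0.16 in R 4.3.3: filterByExpr (13821 genes kept, all 7 members among them), TMM factors and 1 robust quasi-likelihood fit of all 8 libraries with a term per group. The fit had 5 residual degrees of freedom. Genes were called at a Benjamini-Hochberg adjusted p under 0.05 over all genes tested. CPM values use TMM-scaled library sizes. The SE of a fold change was derived from its test, as the absolute log2 fold change divided by the square root of the quasi-likelihood F statistic. The 95% intervals are built on this SE and are approximate. DESeq2 1.42.0 was run as an alternative. The fit was tested on simulated data. Libraries of a group differed by more than sampling noise (chi-square per degree of freedom 88.1 to 159).

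Named genes are the 7 members, Epn1, Epn2 and Abcg1, up to 5 called genes of each list of the wider pathway per comparison (the 2 most abundant where none was called), and the 2 nearest profiles of each member, which for Npc2 and Stard3 are not reported here. A count of 0 allows 3 counts (0.0716 to 0.101 CPM before scaling), which covers counting error only. Promoter sequences are from RefSeq, and the set of promoter windows used here held 6 of the 7 members. Exon lengths, overlaps and shared 50-base words are from GENCODE M21.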

Additional observations from a re-analysis of the deposited data

Results flagged for a closer look

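Reads left without a gene entered no comparison, and their share was higher in both ABCG1KO libraries than in every WT library. Those that matched several loci came to 6.83% of counted reads in ABCG1KO against 2.94% in WT. Those outside annotated genes came to 11.8% in ABCG1KO against 5.32% in WT.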

How the results depend on the processing

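Among the alternative values for single members, 242 kept their direction and their side of the threshold, 19 lost the call, 7 gained it and 12 changed sign, the last all for changes that were not called. Among those for called genes of the wider pathway and Abcg1, 221 kept the call and 75 lost it. In ABCG1KO against WT the block ended the calls of Gramd1a, Laptm4a, Osbpl8, Pnpla2 and Hsd11b1, and fitting both groups by themselves ended those of Gramd1a, Laptm4a and Lamtor1. In ABCG1KO against WT, 3 members were called, but 1 with library size only, 1 with the replicate block, 1 where ABCG1KO and WT were fitted by themselves, and 0 to 2 when a library was left out. In LysM-DKO against WT, 0 members were called, and 1 with DESeq2. In LysM-DKO against ABCG1KO, 0 were called, 1 with DESeq2 and 0 to 3 when a library was left out. The replicate numbers are not stated to pair the libraries, and correlations of same-numbered deviations (-0.07 to 0.43) could not settle it. The highest was for LysM-DKO 2 with WT 2, while LysM-DKO 1 was closest to WT 3. With 2 ABCG1KO libraries the deviations mirror each other, so their correlations carry little. The block moved the count of all genes called from 2216 to 1456 in ABCG1KO against WT, from 1853 to 1024 in LysM-DKO against ABCG1KO, and from 5 to 0 in LysM-DKO against WT. Fits that left out a library called 853 to 1848 genes in ABCG1KO against WT, 561 to 1960 in LysM-DKO against ABCG1KO and 0 to 6 in LysM-DKO against WT. Fitting LysM-DKO and ABCG1KO by themselves called 948 genes. In LysM-DKO against WT, 3 genes were called where each library needed 10 counts or more, or without robust estimation, 8 where the groups were fitted by themselves and 279 with DESeq2, which called 2952 in LysM-DKO against ABCG1KO. Signs turned, in LysM-DKO against WT, for Npc1 (-0.056 to 0.28 when a library was left out), Lipa (-0.18 to 0.14 likewise, -0.0012 with RLE factors and -0.0004 with DESeq2) and Nceh1 (-0.0446 to 0.11). They turned in ABCG1KO against WT for Npc1 (-0.47 to 0.14, and 0.11 with library size only) and Cyp27a1 (-0.10 to 0.56), and in LysM-DKO against ABCG1KO for Npc1 (-0.0709 to 0.55). The cause was not tested. Without robust estimation of the spread, an alternative added after seeing the data, each member kept its call. A fit that leaves 1 ABCG1KO library assumes that it varies like the other groups.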
